A study of Mus musculus with 24 samples.

Results

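Perigonadal fat of the 12 Control mice, titled Control 1 to 12, was described by the signal of each gene and by how far that signal differed from mouse to mouse. They are 12 of the 24 arrays of the series, chosen by title alone, and the other 12 are of AdipoQ-LPL mice, which carry a lipoprotein lipase transgene driven by the adiponectin promoter. Control mice carry the genotype AdipoQ-LpL -/-, without the transgene. All were male C57BL/6 mice, placed in calorimetry chambers at 9.5 weeks of age and moved to a diet with 60% of calories from fat. They were killed after 10 days on that diet, the last 3 of them in single cages, so no Control mouse on chow stands beside them. Their animal numbers fall into a run of 5, from 289 to 293 (Control 1 to 5), and a run of 7, from 842 to 877 (Control 6 to 12). Each run was given its own mean, and levels were not compared between genotypes.

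White fat stores triglyceride in large lipid droplets inside adipocytes and releases it as fatty acids when the animal needs fuel. Adipocytes also secrete hormones such as leptin and adiponectin. Between them lie blood vessels, fibroblasts, macrophages and other immune cells, and mesothelium covers the depot. In male mice the perigonadal pad is attached to the epididymis, the coiled duct in which sperm mature, and lies close to the other ducts and glands of the male tract.

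The arrays give a log2 signal for 41345 transcript clusters, sets of probes for 1 transcript region, of which 27037 carry a gene symbol. The median of those named clusters was 6.05 to 6.15 in the 5 arrays of 289 to 293 and 6.41 to 6.47 in the 7 arrays of 842 to 877, with no overlap. That median was subtracted from each array, and the result is called the level, on a log2 scale where 0 is the array's median and 1 unit is a 2-fold difference. Spread is the SD of levels around the run means, with 10 residual degrees of freedom over the 12 mice, and is called the residual SD. A total of 20113 named clusters had a mean deposited value of at least 5 in Control mice and were used, and these represent 18582 genes. The order of levels between genes also depends on how well probes bind, so genes were not tested against each other.

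The markers of the labelled tissue were present. All 30 adipocyte genes passed the floor, with a median level of 5.51 and a range of 3.22 to 7.72, against a median of 0.83 over all clusters. Fibroblast and progenitor markers had a median level of 3.68, resident macrophage markers 3.09, smooth muscle and pericyte markers 2.72, endothelial markers 2.59 and mesothelial markers 1.96. Brown and beige adipocyte genes lay at a median of 0.18, and Ucp1, which makes heat in brown fat mitochondria, at -1.19. Only 8 of 25 epididymis and male tract genes and 7 of 14 exocrine pancreas genes passed the floor, at median levels of -0.45 and -0.14. Bulk tissue does not separate fewer cells of a type from less RNA per cell.

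Among the 25 named genes of highest level, 11 were transcripts of the mitochondrial genome, which encode subunits of the respiratory chain and of ATP synthase. They lay between 7.00 and 7.74, and ND4, a subunit of complex I, was the highest of the named genes. ND4 stood at 7.87, 7.86, 7.87, 7.91 and 7.98 in Control 1 to 5, and in 842 to 877 its lowest, median and highest levels were 7.60, 7.63 and 7.66. The residual SD of these 11 genes ranged from 0.03 to 0.07.

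Adipocyte genes, most of them for lipid handling, made up much of the rest. Car3, the carbonic anhydrase that fat cells hold in large amounts, had a mean level of 7.72, with 7.84, 7.87, 7.71, 7.85 and 7.86 in Control 1 to 5 and 7.55, 7.66 and 7.69 as the lowest, median and highest of 842 to 877. Fabp4, the fatty acid carrier of adipocytes, reached 7.51, 7.55, 7.47, 7.58 and 7.64 in Control 1 to 5 and 7.30, 7.34 and 7.40 in the same order in 842 to 877. Both genes varied by a residual SD of 0.05, and after centring each was higher in every mouse of 289 to 293 than in any of 842 to 877. That order rests on the centring, since the deposited values ran from 13.86 to 13.93 and from 14.02 to 14.09 for Car3, and from 13.57 to 13.69 and from 13.74 to 13.80 for Fabp4, in 289 to 293 and in 842 to 877. Another Car3 cluster, at a mean level of 4.64, had a log2 difference of -0.48 after centring, 842 to 877 minus 289 to 293. Scd1, which puts a double bond into fatty acids, had a mean level of 7.34, Cidec, which fuses lipid droplets, 6.99, and Cd36, a fatty acid transporter, 6.96. Their residual SDs were 0.07, 0.10 and 0.08.

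Lpl, which frees fatty acids from circulating triglyceride, was among the most abundant genes without any transgene. Its levels were 7.42, 7.52, 7.18, 7.46 and 7.45 in Control 1 to 5 and 7.24, 7.31 and 7.37 as lowest, median and highest in 842 to 877, a residual SD of 0.09. After centring Control 3 was the lowest of all 12 mice and the other 4 of its run were the highest. Every deposited value of this cluster was higher in 842 to 877. Another Lpl cluster, at a mean level of 3.41, had a log2 difference of -1.04 after centring, 842 to 877 minus 289 to 293. That exceeds the rise of 0.36 in mean deposited array median, so this cluster's deposited mean was lower in 842 to 877. Apart from the hormone genes described next, nuclear genes outside lipid handling in the top 25 were B2m, the light chain of class I antigen presenting molecules (7.56), Eif4a1, a translation initiation factor (7.33), the lysosomal protease Ctsb (7.15), the peroxisomal enzyme Cat (7.08), the tetraspanin Cd81 (6.92) and the respiratory chain subunit Cox6a1 (6.87).

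**Figure D1:**
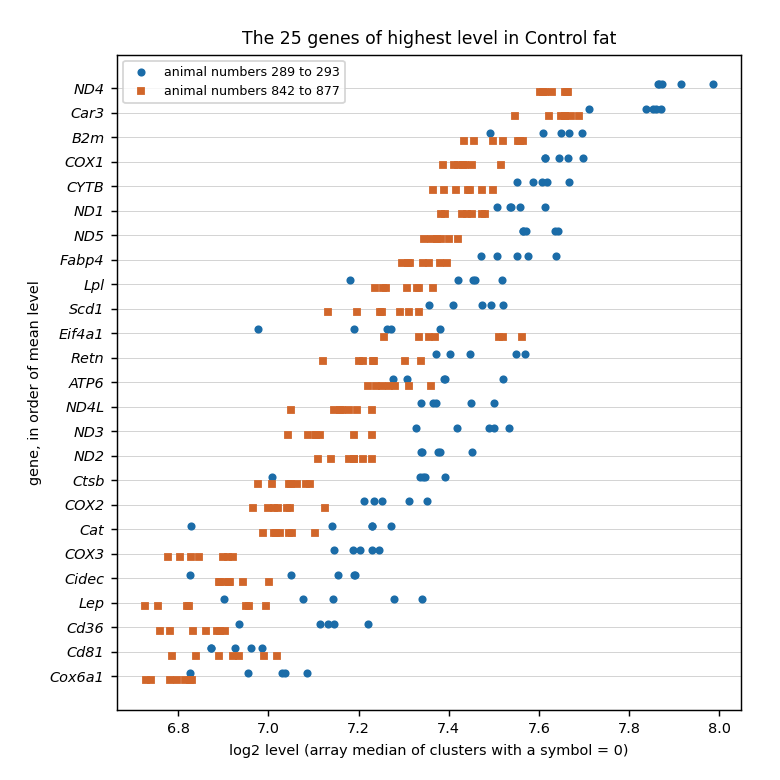
Level of the 25 named genes of highest mean in each Control mouse, on a log2 scale where the array median is 0. Circles are the 5 mice numbered 289 to 293 and squares the 7 numbered 842 to 877. Of the 25 genes, 24 had a lower mean in 842 to 877 after centring, and all 25 a higher one in the deposited values.

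The hormones differed in rank and in spread. Retn, which encodes resistin, stood at 7.40, 7.57, 7.37, 7.45 and 7.55 in Control 1 to 5 and at 7.12, 7.23 and 7.34 as the lowest, median and highest of 842 to 877, with a residual SD of 0.08. Lep, which encodes leptin, the hormone that signals fat stores, stood at 7.14, 7.34, 6.90, 7.28 and 7.08 in Control 1 to 5 and at 6.73, 6.83 and 7.00 in 842 to 877, with a residual SD of 0.14. Adipoq, which encodes adiponectin, was at 6.01, 6.01, 5.56, 6.00 and 6.02 in Control 1 to 5, so that 4 mice lay within 0.02 of each other and Control 3 below them. In 842 to 877 its levels were 5.01, 5.32 and 5.49, with no overlap with the other run after centring, though the deposited values overlapped, and its residual SD was 0.20.

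Cfd, which encodes adipsin, a complement protease made by fat cells, varied more. It stood at 6.25, 5.74, 6.03, 6.25 and 6.55 in Control 1 to 5 and at 5.36, 6.31 and 6.86 in 842 to 877, with Control 7 lowest and Control 8 highest. Its residual SD of 0.49 was second to that of Pck1 among adipocyte genes, and the runs overlapped.

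Genes of other cells also reached high levels. In the matrix list, Bgn and Dcn, small proteoglycans that bind collagen, stood at mean levels of 6.84 and 6.73 with residual SDs of 0.09 and 0.13. Dpt, a fibroblast matrix protein, stood at 6.48. Among immune genes, Cd74, the chain that escorts class II antigen presenting molecules, stood at 6.21 and Lyz2, the lysozyme of macrophages, at 5.40. Hp, which encodes the haemoglobin scavenger haptoglobin, stood at 6.67, and Control 12 at 6.15 was its lowest mouse.

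Over all tested clusters the median residual SD was 0.17, the 95th percentile 0.45 and the 99th percentile 1.00. Spread was smaller at higher levels, from a median of 0.20 at levels below -1 to 0.10 at levels of 6 and above. Whether the low spread of the brightest clusters comes with probes near the top of their signal range was not tested. Of 20113 clusters, 819 (4.07%) had a residual SD of at least 0.5, a size chosen after the values were seen. Only 20 of the 1033 clusters at a level of 4 or more were among them.

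**Figure D2:**
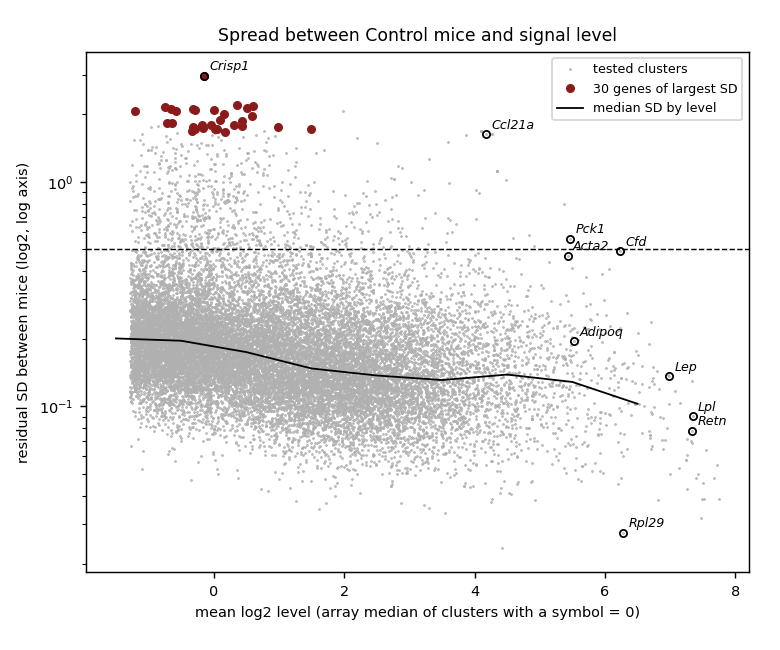
Residual SD between Control mice (log2, on a log axis) against mean level for the 20113 tested clusters, with the 30 named genes of largest spread filled in dark red and 10 named examples ringed. The solid line is the median SD by level, which falls from 0.20 to 0.10, and the dashed line marks an SD of 0.5.

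A formal test compared the residual variance of each cluster with the variance that limma's robust prior gives to clusters of its level, with Benjamini-Hochberg adjustment. It called 0 of 20113 clusters (0%), with a smallest adjusted p of 0.11, and 1368 clusters had an unadjusted p under 0.05. The test called 0 clusters within 289 to 293, where 1096 had an unadjusted p under 0.05 and the smallest adjusted p was 0.32. Within 842 to 877 it also called 0, with 1378 unadjusted and a smallest adjusted p of 0.11. The prior has a wide spread of its own, with 4.06 degrees of freedom, so a cluster has to vary many times more than its peers to be called. Since no cluster was called, the genes below were named by size of SD after the values were seen.

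The arrays of Control 3, 6 and 7 stood apart from the rest of their runs. The root mean square deviation from the run means was 0.42 in Control 3, 0.34 in Control 7 and 0.30 in Control 6, and 0.17 to 0.21 in the other 9. Control 3 was the mouse farthest from its run mean in 473 of the 819 clusters of large SD, Control 6 in 131 and Control 7 in 104. Over all tested clusters those shares were 34.4%, 10.7% and 13.6%. Without these 3 mice, an omission chosen after these values were seen, 267 of 20113 clusters had a residual SD of at least 0.5. The variance test then called 31 of the 20113 clusters. They belong to 21 genes, among them Ear11, Ccl21a, Ccl21b, Crisp1, Cuzd1, Mmrn1, Lcn2, Svs5, Mup8 and Mup15.

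The largest spread that many genes shared set Control 3, 7 and 11 apart from the other mice. Of the 30 named genes of largest SD, 22 were highest in Control 3 within 289 to 293 and in Control 7 within 842 to 877. In all 22 Control 4 came second in its run, and in 21 Control 11 came second in its run. The deviation from the run mean was 3.09 to 4.00 in Control 3 and 2.49 to 3.95 in Control 7. Without Control 3, 6 and 7, 21 of the 22 still had a residual SD of at least 0.5, beside 267 of 20113 clusters. The range was 0.49 to 1.49. The 22 were picked for large spread in these same mice, and Control 4 and Control 11, the next highest, stayed in. That count is therefore no independent measure of their spread. Some of the 22, such as Rsph4a and Sntn, passed the floor through the few mice where they were high. The spread of such genes was thus partly set by the floor.

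Several of the 22 are known from motile cilia, the beating hairs of some epithelial cells, which are moved by dynein motors along microtubules. Rsph4a, a part of the radial spoke that regulates ciliary beating, stood at -2.19, -2.38, 2.89, -0.67 and -2.39 in Control 1 to 5. In 842 to 877 its lowest, median and highest levels were -1.91, -1.74 and 3.18, with Control 11 at 1.59 and Control 7 at the top. The level lay near the bottom of the array in most mice and well above it in 3. Sntn, which encodes sentan of the ciliary tip, had 2.71 in Control 3, 2.24 in Control 7 and 0.78 in Control 11, and between -2.77 and -1.12 in the other 9. Dynlrb2, a dynein light chain, had 2.87, 2.85 and 1.14 in the same 3 mice, and Wdr52, a ciliary protein now called Cfap44, 3.43, 2.79 and 2.07. Foxj1, the transcription factor that switches on motile cilia genes, is outside the 30 with a residual SD of 0.98, and stood at 1.83, 0.52 and 0.20 in those mice.

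Promoters of ciliary genes often carry an X-box, the motif read by RFX factors, which help to make cilia. The promoters of Sntn and Wdr52 are shown because they hold the core of this motif, GTTGCC on either strand, within the 300 bases from 250 before to 50 after the transcript start in the RefSeq promoter set for build GRCm38.p6. The capitals mark the matches, and both are written 5′ to 3′ on the plus strand, the strand of the gene, from chr14:13670626-13670925 and chr16:44394549-44394848.
Sntn: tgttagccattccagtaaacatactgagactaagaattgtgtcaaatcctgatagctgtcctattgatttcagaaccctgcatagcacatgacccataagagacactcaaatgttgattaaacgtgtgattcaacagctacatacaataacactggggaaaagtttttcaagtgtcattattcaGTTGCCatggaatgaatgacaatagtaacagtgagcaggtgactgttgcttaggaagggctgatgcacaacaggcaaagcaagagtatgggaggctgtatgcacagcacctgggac
Wdr52 (Cfap44): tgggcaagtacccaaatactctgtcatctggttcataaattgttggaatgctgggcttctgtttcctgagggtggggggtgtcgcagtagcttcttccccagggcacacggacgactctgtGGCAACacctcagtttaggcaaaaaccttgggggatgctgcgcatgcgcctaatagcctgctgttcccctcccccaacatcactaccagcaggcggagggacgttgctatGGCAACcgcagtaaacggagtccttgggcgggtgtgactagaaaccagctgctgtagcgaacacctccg
Of the 22 genes 19 had a promoter in that set, and 5 held the core, which are Sntn, Ppil6, Cdhr3, Dynlrb2 and Wdr52, against 14.1% of all 27025 genes and 12.5% of all 32851 promoters, since a gene may have several. These are matches of letters and not measured binding sites.

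Other genes of the 22 are known from epithelia or from steroid and amino acid metabolism. Srd5a2, which turns testosterone into dihydrotestosterone, stood at -1.31, -0.76, 4.34, 0.51 and -0.71 in Control 1 to 5, and at -0.84, -0.66 and 4.30 as the lowest, median and highest of 842 to 877. Mmp7, a matrix protease of epithelial cells, stood at 4.41 in Control 3, 4.19 in Control 7 and 2.68 in Control 11, and at or below 0.37 in the rest. Pipox and Dao, peroxisomal oxidases of amino acids, followed the same order, with 4.27, 4.02 and 2.48 for Pipox and 3.31, 3.43 and 2.12 for Dao. In Cuzd1, a secreted epithelial protein, Control 4 also lay above the rest of its run, at 1.27. The 3 mice lay above all others in each of these genes.

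Epcam, an adhesion molecule of epithelial cells, and Pax8, a transcription factor of kidney, thyroid and reproductive ducts, were high in Control 6 as well. Epcam stood at 2.45 in Control 3, 2.56 in Control 7 and 1.77 in Control 6, and at 0.24 or lower in the other 9. Pax8, which was highest in Control 6 within its run, stood at 2.59, 2.30 and 2.39 in those 3 mice and at 0.39 or lower in the others. Control 3, 6 and 7 were also the arrays that stood apart, while Control 11, which shared the ciliary genes, had a root mean square deviation of 0.20, within the range of the other arrays. The part of other tissue in the sample was not tested.

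**Figure D3:**
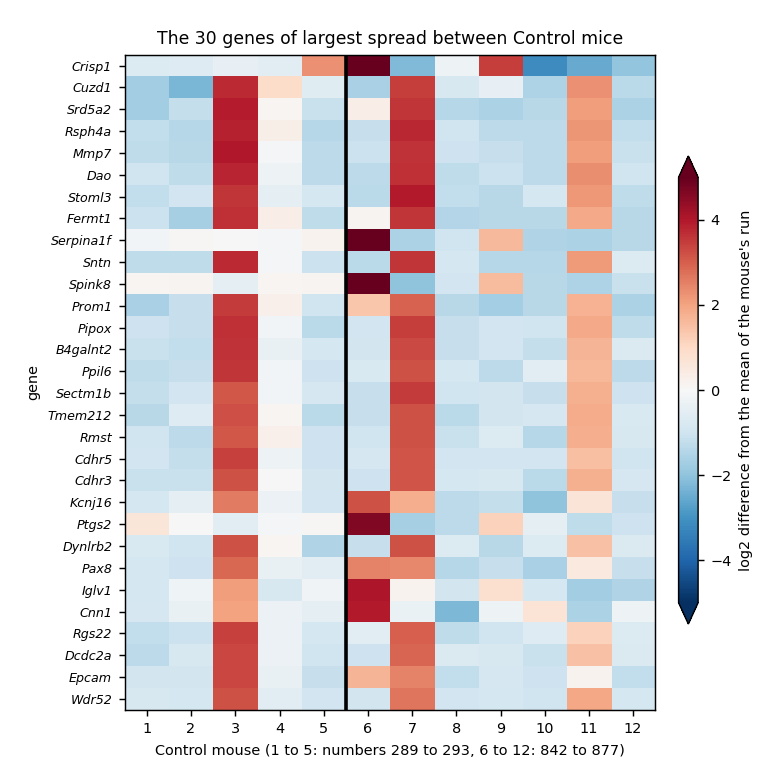
Deviation of each Control mouse from the mean of its run (log2, colour, clipped at 5 units) for the 30 named genes of largest residual SD, which ranged from 1.67 to 2.97. Red columns at Control 3, 7 and 11 mark the 22 genes highest in Control 3 and Control 7, and Control 6 is the highest mouse in genes such as Crisp1, Serpina1f, Spink8 and Ptgs2.

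The same genes also varied in mice that played no part in choosing them. Within the 12 AdipoQ-LPL mice, fitted with their own run means, 94 of the 100 Control genes of largest SD had an SD of at least 0.5, against 1.99% of all genes. All 22 genes above were among those, with SDs of 1.03 to 1.80. The variance test called 69 clusters in AdipoQ-LPL mice (0.343%), all 69 of which had a residual SD of at least 0.5 in Control mice, and 16 of the 30 named genes were called. The count was 12 without centring, 10 with quantile normalization, 8 with an ordinary prior and 0 without a trend of variance on level.

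Many of the most variable genes were shared by both runs of Control mice. Of the 100 genes of largest SD in 289 to 293, 69 were among the 100 of largest SD in 842 to 877, where 100 genes make 0.538% of all. The 100 genes of the first run had a median SD of 1.30 in the second, against 0.15 over all genes, and those of the second 1.59 in the first, against 0.17. Without Control 3, 6 and 7 the overlap was 37 of 100.

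Control 6 carried another set. Crisp1, a secreted protein that the epididymis adds to sperm, had the largest residual SD of all clusters, 2.97. It stood at -2.11, -2.08, -1.86, -1.99 and 0.86 in Control 1 to 5, and its lowest, median and highest levels in 842 to 877 were -2.37, -1.20 and 7.45. Control 6 was the highest, with a level as high as the most abundant fat cell genes, and Control 9 followed at 4.24. Serpina1f, a protease inhibitor of the epididymis, stood at 6.10 in Control 6 and 2.22 in Control 9, and at -0.40 or lower in the other 10 mice. Spink8, a protease inhibitor, and Ptgs2, the enzyme that starts prostaglandin synthesis, had their highest levels in the same 2 mice. These were 5.55 and 1.73 for Spink8 and 6.25 and 2.77 for Ptgs2. The floor was applied to means that include these high mice, and Crisp1 passed it through the few mice where it was high. Spink8 passed the floor of 5 but not a floor at 6. The spread of such genes was thus partly set by the floor.

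Smooth muscle genes were high in Control 6 too. The mean deviation of the 14 smooth muscle and pericyte genes was 1.14 in that mouse and between -0.41 and 0.25 in the other 11, and 6 of the 14 had a residual SD of at least 0.5, against 4.07% of all clusters. Their median SD was 0.47, against 0.17 over all clusters. Cnn1, which damps the contraction of smooth muscle, stood at -0.35, 0.13, 2.52, 0.19 and 0.01 in Control 1 to 5 and at -0.04, 1.94 and 6.19 as the lowest, median and highest of 842 to 877. Myh11, the smooth muscle myosin, stood at 5.96 in Control 6, and between 2.12 and 3.60 in the others. Acta2, smooth muscle actin, stood at 6.71 there and between 4.94 and 5.56 elsewhere. Des and Mylk, an intermediate filament and the kinase that triggers contraction, had 4.83 and 3.23 in Control 6. Rgs5, a marker of the pericytes around capillaries, did not share this, at 5.60 in Control 6 and a residual SD of 0.17. Without Control 3, 6 and 7, only 1 of the 14 genes had an SD of at least 0.5, beside 267 of 20113 clusters.

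Some skeletal muscle genes were also high in the same mouse. Acta1, skeletal actin, stood at 4.04 in Control 6 and between 1.19 and 2.72 in the others, and Tnnc2 and Ckm, of the fast contractile apparatus and its energy supply, at 2.04 and 1.24. The list's mean deviation was 0.32 in Control 6 and -0.17 to 0.15 in the rest. Of its 15 tested genes 1 had an SD of at least 0.5, near the 4.07% of all clusters. Their median SD was 0.19, against 0.17 over all clusters, and Control 6 was the farthest mouse in 4, against 10.7% of all clusters.

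Other male tract genes were high in single mice. Svs5, a seminal vesicle secretion, stood at 3.67 in Control 9 and between -1.94 and -1.09 in the other 11. Lcn9 and Adam7, a lipocalin and a sperm surface protein of the epididymis, had their highest levels in Control 5, at 3.09 and 2.12. Only 8 of the 25 genes of the epididymis and male tract list passed the floor, and genes such as Crisp1 and Svs5 passed it through the few mice where they were high, so the spread of these 8 was partly set by the floor. Their mean deviation was highest in Control 5, Control 9 and Control 6, at 1.30, 1.01 and 0.91, and lowest in Control 10, at -0.87. The mouse of highest level thus differed from gene to gene.

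Mup genes encode the major urinary proteins, pheromone carriers known chiefly from liver. Mup15 stood at 0.37, -0.14, -0.32, 3.85 and -0.19 in Control 1 to 5 and at -0.11, 0.65 and 3.01 as the lowest, median and highest of 842 to 877. Control 4 and Control 12 were the high mice, and the same 2 led Mup8, at 3.56 and 2.89, and Mup13, at 3.10 and 2.86. The Mup genes are close copies of each other, so their clusters may share signal. Their spread did not rest on the mice that stood apart, since without Control 3, 6 and 7 the residual SD was 1.55 for Mup15 and 1.51 for Mup8.

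Ccl21a and Ccl21b, copies of the chemokine that draws lymphocytes and dendritic cells into lymphatic vessels and lymph nodes, were both abundant and variable. Ccl21a stood at 0.59, 2.35, 6.19, 3.91 and 3.02 in Control 1 to 5 and at 2.48, 5.50 and 6.13 as the lowest, median and highest of 842 to 877. Control 1 was low, Control 3 and Control 10 were high, and the runs overlapped. Ccl21b followed it closely, at 0.73 in Control 1 and 6.33 in Control 3, and both had a residual SD of 1.63. Several clusters named Ccl21b hold identical values, as do 247 of the tested clusters in all, so these are not separate measurements. Cxcl13, the chemokine of B cell follicles, had a residual SD of 0.79 and was highest in Control 6, at 4.44.

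C7, a complement protein that fibroblasts make, was among the few bright genes of large spread. It stood at 3.62, 4.39, 6.52, 5.20 and 5.14 in Control 1 to 5 and at 5.02, 5.39 and 6.42 in 842 to 877, a residual SD of 0.80. Like Ccl21a it was lowest in Control 1 and highest in Control 3 and Control 10 within their runs.

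Genes of B and plasma cells varied in 842 to 877 above all. The list's mean deviation was 0.59 in Control 9 and 0.47 in Control 6, and -0.59 in Control 11, while in 289 to 293 it lay between -0.12 and 0.08. Ms4a1, the B cell antigen CD20, stood at 1.89 in Control 9 and 1.23 in Control 6, and Cd79a, of the B cell receptor, at 2.03 and 1.75. Igj, the chain that joins antibodies into polymers, stood at -2.45, -2.20, -1.24, -0.60 and -1.76 in Control 1 to 5, and at -1.49, 0.85 and 1.94 in 842 to 877. Igj passed the floor through 842 to 877, the run where it was high, so its place among the tested genes was partly set by the floor. Of the 19 members 15 passed the floor, at a median level of -0.11. Of these 3 had a residual SD of at least 0.5, against 4.07% of all clusters. Whether signal near background narrowed the spread in 289 to 293 was not tested. The brightest Ighm cluster, at a level of 6.51, varied by only 0.21, and another Ighm cluster, at 4.02, by 0.92. In the T and NK cell list, of which 19 of 22 members passed the floor, the mean deviation was highest in Control 12, at 0.32.

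Mesothelial genes were low in Control 7. Of 14 genes 8 had a residual SD of at least 0.5, against 4.07% of all clusters, and the median SD was 0.67 against 0.17. Upk3b, a membrane protein of the mesothelial surface, stood at 4.75, 4.10, 3.63, 3.72 and 4.51 in Control 1 to 5 and at 1.98, 4.48 and 4.95 as the lowest, median and highest of 842 to 877. Msln, which encodes mesothelin, was lowest in Control 7 at 0.44 and highest in Control 11 at 2.94, and Gpm6a, a membrane glycoprotein, ran from 1.73 in Control 7 to 4.11 in Control 10. The list's mean deviation was -0.83 in Control 7, -0.36 in Control 6, and between -0.30 and 0.44 in the others. Control 7 was the farthest mouse in 10 of the 14 genes, against 13.6% of all clusters. Without Control 3, 6 and 7, 1 of the 14 had an SD of at least 0.5, beside 267 of 20113 clusters.

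**Figure D4:**
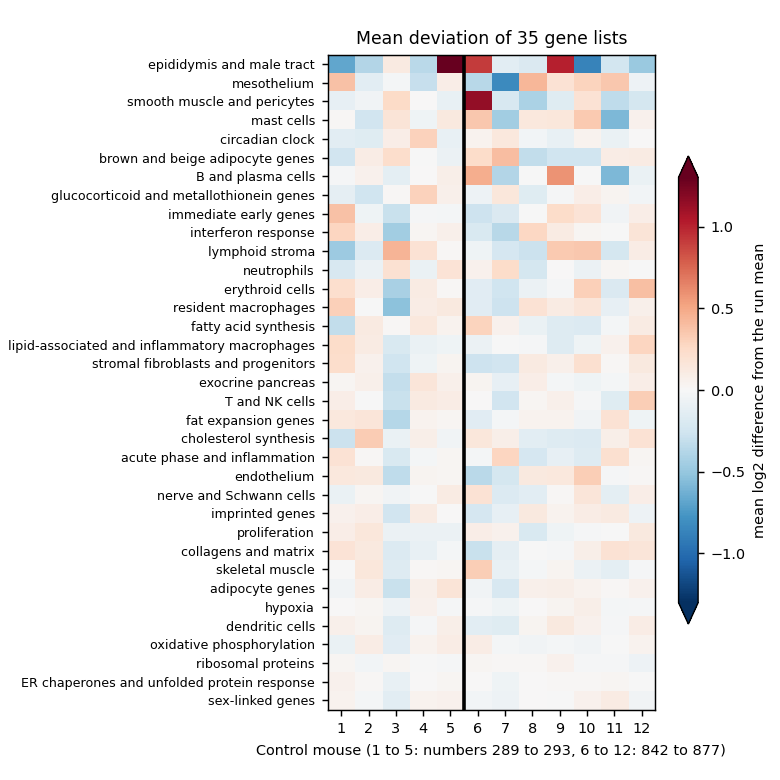
Mean deviation from the run mean (log2, colour) over the tested genes of each of 35 gene lists in each Control mouse, with lists in order of the median residual SD of their genes. Among the strong cells are the epididymis and male tract list in Control 5 (1.30), smooth muscle in Control 6 (1.14) and mesothelium in Control 7 (-0.83), and the lowest rows, such as ribosomal proteins, are close to 0 in all mice.

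Resident macrophage genes were lowest in Control 3. All 20 were tested, with a median SD of 0.26 against 0.17 over all clusters. An SD of at least 0.5 was reached by 0 of the 20, near the 4.07% of all clusters. Control 3 was the farthest mouse in 16 of the 20, against 34.4% of all clusters. The list's mean deviation in Control 3 was -0.54, and the other mice lay between -0.27 and 0.31. C1qb, a complement chain made by macrophages, stood at 4.37 in Control 3 and 4.50 to 5.19 elsewhere. In the list of lipid-associated and inflammatory macrophages 6 of 20 genes had a large SD, led by Plac8, at 2.70 in Control 6, and Atp6v0d2, a proton pump subunit of macrophages that take up lipid, at 2.31 in Control 12. Mmp12, a macrophage elastase, was also highest in Control 12, at 2.72, and lowest in Control 9, at 0.63. Ear11, a ribonuclease of the eosinophil-associated family, had a residual SD of 1.57. It stood at 2.99, 4.04, 1.41, 2.71 and 1.53 in Control 1 to 5 and at -0.46, 2.55 and 3.96 in 842 to 877, with Control 8 and Control 10 lowest.

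Among signals of inflammation, Lcn2, an iron-binding acute phase protein, stood at 4.90 in Control 3, 4.82 in Control 7 and 4.07 in Control 11, the mice with high ciliary genes, and at 0.89 to 2.83 in the others. Its residual SD was 1.49. Saa3, an acute phase protein of fat, was lowest in Control 3 at 0.31 and highest in Control 7 at 2.97, and Ccl2, the chemokine that draws monocytes, was highest in Control 1 at 3.10 and lay between 1.10 and 2.01 in the rest. Neither Saa3 nor Ccl2 followed the order of Lcn2.

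Adipocyte genes had a median residual SD of 0.18, beside 0.17 over all clusters. It was 0.13 over the 243 clusters at levels of 5 to 6, a band that holds the median level of these genes but not all of them. Of the 30 genes 1 had an SD of at least 0.5, near the share over all clusters. Control 3 was the farthest mouse in 17 of the 30, against 34.4% of all clusters. The list's mean deviation was -0.29 in Control 3, -0.21 in Control 7 and -0.05 to 0.17 in the others. The gene with the large SD was Pck1, which makes the glycerol backbone for triglyceride in fat cells. It stood at 6.20, 5.45, 4.93, 5.51 and 6.13 in Control 1 to 5 and at 4.37, 5.43 and 5.97 as the lowest, median and highest of 842 to 877, with Control 3 and Control 7 lowest in their runs. The residual SD was 0.56, and 0.40 without Control 3, 6 and 7, so part of the spread stayed in the other 9 mice. Slc2a4, the insulin-responsive glucose transporter, stood at 2.56 in Control 3 and 2.86 in Control 7, and at 3.25 to 3.67 in the rest, and Adrb3, the receptor through which noradrenaline starts fat breakdown, at 3.37, 3.11 and 3.58 in Control 3, 7 and 6 and 3.84 to 4.51 in the others.

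The 10 genes tied to growth of the fat pad had a median residual SD of 0.24. Mest and Nnat, imprinted genes expressed when adipocytes enlarge, had residual SDs of 0.30 and 0.52. Nnat stood at 5.33, 4.89, 4.50, 5.18 and 5.48 in Control 1 to 5 and at 4.00, 4.78 and 5.42 in 842 to 877, lowest in Control 7 and Control 6. Sfrp5, a secreted inhibitor of Wnt signalling, stood at 4.40 in Control 1, 2.94 in Control 3, 4.02 in Control 4 and 3.32 in Control 5, with Control 2 between Control 1 and Control 4, and at 2.26, 2.84 and 3.56 in 842 to 877, and the runs overlapped. Of the 10 genes of this list 2 had an SD of at least 0.5, against 4.07% of all clusters. Without Control 3, 6 and 7 there were 0, beside 267 of 20113 clusters. Peg3, another imprinted gene, lay between 3.61 and 4.72 in 11 mice and at 2.76 in Control 12.

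In fatty acid synthesis Fads2, the desaturase that makes polyunsaturated fatty acids, had a residual SD of 1.15. It stood at 2.22, 1.96, 4.69, 2.30 and 2.15 in Control 1 to 5 and at 2.10, 2.51 and 5.13 as the lowest, median and highest of 842 to 877. Control 3, 6 and 7 were the 3 highest, and without them the SD was 0.29. Acss2, which makes acetyl-CoA from acetate, varied across other mice, from 2.50 in Control 1 to 3.93 in Control 2, and from 2.24 in Control 10 to 3.67 in Control 12, with an SD of 0.51, and 0.56 without those 3 mice. The median SD of the 22 fatty acid synthesis genes was 0.25. Fasn, the fatty acid synthase, stood at 5.84 to 6.70, with an SD of 0.26.

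Cholesterol synthesis genes had a median SD of 0.24, against 0.17 over all clusters, and 0 of 24 reached 0.5, near the 4.07% of all clusters. Control 2 was the farthest mouse in 11 of the 24, against 4.66% of all clusters, and its mean deviation was 0.33, with Control 1 at -0.28 and the others between -0.18 and 0.18. Insig1, which holds back the sterol sensing machinery and is itself induced by it, stood at 4.69, 6.22, 5.78, 5.68 and 5.56 in Control 1 to 5, and at 5.07, 5.51 and 5.82 in 842 to 877. Hmgcs1, at the start of the sterol pathway, was likewise highest in Control 2, at 5.90, and Fdps, further along it, at 2.47.

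**Figure D5:**
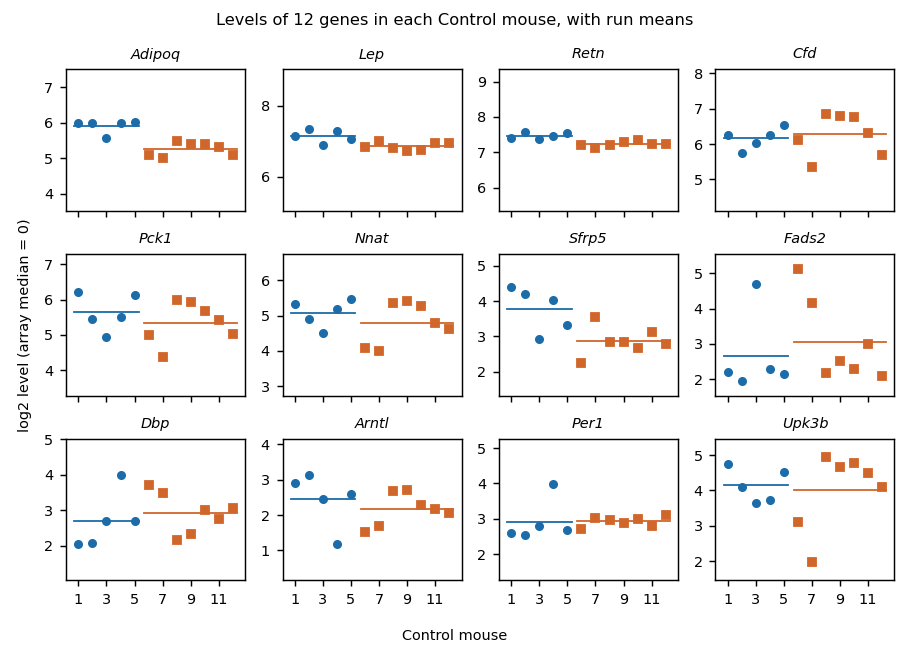
Level of 12 genes in each Control mouse, on a log2 scale where the array median is 0 and every panel spans 4 units. Circles are mice 289 to 293, squares mice 842 to 877, and lines are run means. Retn and Lep stay close to their run means, Upk3b drops in Control 7, Fads2 is high in Control 3, 6 and 7, and Control 4 is high for Dbp and Per1 and low for Arntl.

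Clock genes set Control 4 apart. In the circadian clock, BMAL1, the product of Arntl, and its partners switch on the Per, Cry and Dbp genes, whose products act in turn on the cycle, so that the groups peak at different times of day. Of 17 clock genes 4 had an SD of at least 0.5, against 4.07% of all clusters, and the median SD was 0.40. Without Control 3, 6 and 7 there were also 4, beside 267 of 20113 clusters. Control 4 was the farthest mouse in 10 of the 17, against 3.95% of all clusters. Dbp, an output gene of the clock, stood at 2.04, 2.06, 2.70, 4.00 and 2.69 in Control 1 to 5 and at 2.16, 3.01 and 3.72 in 842 to 877. Arntl ran the other way, at 2.91, 3.13, 2.45, 1.19 and 2.60 in Control 1 to 5 and 1.52, 2.17 and 2.70 in 842 to 877. Within 842 to 877 Control 6 was highest for Dbp and lowest for Arntl, and Control 8 was lowest for Dbp. Per1 stood at 3.99 in Control 4 and 2.55 to 3.12 in all others. Npas2, a partner of BMAL1, was lowest in Control 4 at -0.63.

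The E-box CACGTG is the motif that BMAL1 and its partners read. Of 14 clock genes with a promoter in that set 4 held it, Per1, Cry1, Tef and Bhlhe41, against 8.09% of all genes and 7.15% of all promoters. The 22 genes high in Control 3 and 7 held it in 4 of 19. The promoter of Per1 is shown because Per1 set Control 4 apart most clearly, with the match in capitals, 5′ to 3′ on the plus strand, the strand of the gene, at chr11:69098699-69098998 in GRCm38.p6.
Per1: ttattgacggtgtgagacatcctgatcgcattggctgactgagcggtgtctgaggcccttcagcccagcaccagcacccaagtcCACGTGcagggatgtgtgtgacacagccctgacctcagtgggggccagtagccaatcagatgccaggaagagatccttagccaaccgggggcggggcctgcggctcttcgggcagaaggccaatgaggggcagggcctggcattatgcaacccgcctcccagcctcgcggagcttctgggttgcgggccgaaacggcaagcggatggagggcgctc
Tef, a transcription factor related to Dbp, was also highest in Control 4, at 1.67, with the other 11 mice between 0.55 and 1.08. Dbp, with a larger spread than either, was not among the genes that held the motif in this window, and a match of letters is no measure of binding.

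Some stress hormone genes were high in the same mouse. Fkbp5, which the glucocorticoid receptor induces, stood at 2.64 in Control 4 and 0.88 to 1.96 in the others, and Zbtb16, a further target of that receptor, at 4.12 and 2.50 to 3.60. The list's mean deviation was 0.30 in Control 4 and -0.26 in Control 2. Control 4 was the farthest mouse, in either direction, in 7 of its 15 tested genes, against 3.95% of all clusters. Of the 15 genes 1 had an SD of at least 0.5, near the 4.07% of all clusters. It was Lcn2, which was high in Control 3, 7 and 11 and not in Control 4. The hour of death is not given for single mice in the labels, and its part in these values was not tested. Immediate early genes, which respond within minutes to handling and stress, were highest in Control 1, with a mean deviation of 0.38. Fos stood at 1.72 there, against 0.04 to 1.27 elsewhere, and Dusp1, a phosphatase that ends kinase signals, at 4.43, against 3.47 to 3.96.

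At the other end, the 10 genes of lowest SD at a level of at least 2 included Apoa1bp, Rpl29, Itm2b, ND5, Ap1ar, Anapc1, Casd1, Hnrnpul1 and Tm9sf3. Apoa1bp, an epimerase that repairs damaged NADH, stood at 4.41, 4.43, 4.41, 4.46 and 4.44 in Control 1 to 5 and at 4.37, 4.41 and 4.45 in 842 to 877, so that the runs overlapped as well. Rpl29, of the large ribosomal subunit, stayed within 6.43 to 6.46 in the first run and 6.13 to 6.22 in the second. Another Rpl29 cluster, at a mean level of 2.65, had a residual SD of 0.16, so the low spread is that of the brightest cluster. Ribosomal protein genes had a median SD of 0.11, genes of the endoplasmic reticulum's folding machinery 0.11 and oxidative phosphorylation genes 0.13. Of their 31, 21 and 26 tested members 0 had an SD of at least 0.5, near the 4.07% of all clusters.

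Levels differed between the runs after centring. By limma 914 clusters (4.54%) were higher in 842 to 877 and 1808 (8.99%) lower, at an adjusted p under 0.05. Blvrb, biliverdin reductase B, was lower, at 2.12, 2.08, 1.96, 2.06 and 2.04 in Control 1 to 5 and 1.24, 1.43 and 1.51 as the lowest, median and highest of 842 to 877 (log2 difference -0.64 ± 0.06 (SE), adjusted p = 3.4e-05 by limma). Hist1h4m, a histone gene, was higher by 0.80 ± 0.08 (SE, adjusted p = 4.0e-05 by limma), and Slc25a4, the ATP carrier of mitochondria, by 0.47 ± 0.06 (SE, adjusted p = 0.00026 by limma). The deposited values of Hist1h4m ran from 4.72 to 5.01 in 289 to 293 and from 5.86 to 6.05 in 842 to 877. It thus passed the floor of 5 through the run where it was high, and its call was partly set by the floor. Without centring the balance turned, with 13516 higher and 184 lower, and the number of higher clusters was 1692 without a floor and 519 with a floor at 6. Without Control 3 the number of lower clusters was 3358, and without Control 4 it was 1131. After centring 24 of the 25 most abundant genes had a lower mean in 842 to 877, with a median difference of -0.20, but in the deposited values all 25 had a higher one, with a median difference of 0.16. Of the ribosomal protein genes 12 of 31 were called lower and 0 higher after centring, and 26 of 31 had a higher mean in the deposited values. Blvrb kept its direction there, with a difference of -0.29. Cohort of mice, array batch and normalization cannot be told apart here, since the runs also differ in the median and the maximum of the deposited values. For that reason levels of the 2 runs are given apart above.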

How the data were processed

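Per the labels and methods, RNA of each mouse was labelled and hybridised to an Affymetrix mouse array, and the authors deposited log2 values after RMA and analysis in Partek (versions not given in the sources used here). The deposited annotation names the gene and the number of markers of each cluster, another kind of unit. The deposited columns of the authors' own comparisons (group means, p-values, fold changes, splicing p-values) were not used. Each array's median over clusters with a symbol was subtracted, and clusters with a mean deposited value of at least 5 in Control mice were kept. Residual variances were tested one-sided against limma's robust, level-dependent prior, and run means were compared by two-sided tests, in both cases calling adjusted p-values (Benjamini-Hochberg) under 0.05 (limma 3.58.1, statmod 1.5.0, R 4.3.3). Tables and figures used Python 3.11.15, pandas 2.3.3, numpy 2.4.6 and matplotlib 3.10.9. Both tests were checked on simulated data.

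Where a gene has more than 1 cluster, the brightest on average stands for it. Genes are named for level (25), spread (30, and 10 in each run), low spread (10), difference between runs (10 each way), and within each of 35 lists the 2 of highest level and 4 of largest SD, with Adipoq, Lep, Retn, Cfd and Lpl. Predicted and unnamed transcripts were counted but not named. A gene that the rule picks for low spread is not reported here. Foxj1, Msln, Per1, Tef, Mmrn1 and other genes outside that rule were chosen after their values were seen. The members and lists were chosen with earlier results of these data known. Settings tried were the floor, centring, quantile normalization, the prior, a single mean over the 12 mice, all clusters of a gene and omission of each mouse, and, added after the data had been seen, omission of Control 3, 6 and 7. The number of arrays limits the precision. The labels name each sample as a mouse, with 1 array each, so the residual spread holds differences of mouse and of array together. The variance test sets that spread against the prior for clusters of like level. The run test sets the difference of the run means against it.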

Additional observations from a re-analysis of the deposited data

Results flagged for a closer look

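A level or list mean was singled out where the highest or lowest mouse of a run lay far from the next mouse, and the figure in brackets is that gap as a share of the run's whole range (above 0.710 in the run of 5, 0.568 in the run of 7). Chance alone does so in about 1 of 20 groups. Among 70 list means 6 were singled out, where chance gives 3.5, and among 148 gene and run pairs 32, where chance gives 7.4. Most of these genes were chosen for their spread, so the second count says little of genes in general. Control 3 was the far mouse in 21 of the 38.

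Control 3 lay below the other mice of 289 to 293 in the list means of endothelium (0.754), fat expansion genes (0.737) and imprinted genes (0.714), and in the levels of Car3 (0.79), Lpl (0.712), Adipoq (0.973) and Spink8 (0.92). It lay above them in Mmp7 (0.749), Dao (0.789), Stoml3 (0.84), Sntn (0.763), Pipox (0.757), Epcam (0.822), Pax8 (0.833), Cdhr3 (0.748), Foxj1 (0.797), Wdr52 (0.908), Cnn1 (0.812), Myh11 (0.739), Iglv1 (0.759) and Fads2 (0.875). Control 6 lay above the other mice of 842 to 877 in the list means of skeletal muscle (0.634) and smooth muscle and pericytes (0.618) and in Acta2 (0.652), Myh11 (0.635), Ucp1 (0.756) and Slc25a4 (0.594), and below them in Npas2 (0.582). Control 4 lay above its run in Mup15 (0.834), Mup8 (0.844) and Per1 (0.832) and below it in Npas2 (0.735). Control 12 was the far high mouse in Mup15 (0.64) and Mup8 (0.601), Control 9 in Svs5 (0.871) and Control 5 in Crisp1 (0.917). Control 1 lay below its run in the list mean of fatty acid synthesis (0.739) and above it in Hist1h4m (0.722). The extreme values of Control 3 come from the array with the largest overall deviation. Whether array quality has a part in them was not tested.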

How the results depend on the processing

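The count of 0 variable clusters in Control mice was the same under every other floor, centring, normalization and prior tried, in all mice and in each run, and in all mice with a single mean or with all clusters of a gene, including omission of each mouse in turn (0 in each case), and 31 clusters were called without Control 3, 6 and 7, an omission chosen after the data had been seen. In AdipoQ-LPL mice the count of 69 was 12 without centring, 10 with quantile normalization, 8 with an ordinary prior and 0 with a robust prior without a trend, and the cause was not tested. The number of clusters with an SD of at least 0.5, 819, was 529 with a floor at 6, which tests fewer clusters, 589 to 874 on omission of each mouse and 267 without Control 3, 6 and 7, and the overlap of the 100 most variable genes of the runs, 69, was 37 without those mice and 59 to 70 under the other settings. Between runs, 914 higher and 1808 lower clusters became 13516 and 184 without centring, where the higher array medians of 842 to 877 are left in. The higher count was 1692 without a floor and 519 with a floor at 6, and omission of each mouse gave 634 to 1052 higher and 1131 to 3358 lower. Of 1467 gene and setting pairs for 74 named genes, 1458 kept the call, and the other 9 genes were called only without Control 3, 6 and 7. No paired analysis was possible because the runs hold different mice and no comparison between genotypes was made. Probe signal near background limits genes at low levels.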

Other observations

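Other gene groups of the Control mice also differed from mouse to mouse. Of 11 mast cell genes 7 passed the floor, and the mean deviation of these was lowest in Control 11 and Control 7, at -0.59 and -0.45. Cpa3, a protease of mast cell granules, stood at 1.75 in Control 11, 1.84 in Control 7 and 3.42 in Control 10. Endothelial genes were lowest in Control 6 and Control 3, with mean deviations of -0.35 and -0.33, and highest in Control 10, at 0.32. Vwf, the clotting factor that endothelium stores, had 3.31 in Control 10, 2.81 in Control 9 and 2.70 in Control 12, and between 1.09 and 1.83 in the other 9 mice.

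Interferon response genes were low in Control 3 and Control 7, with mean deviations of -0.46 and -0.36. An SD of at least 0.5 was reached by 0 of 21, near the 4.07% of all clusters. Ifi44, an interferon-induced gene, stood at 1.50 in Control 3 and 2.29 to 3.30 in the others. Among collagens and matrix genes, Thbs1, a matrix protein that activates TGF-beta, was highest in Control 1 at 4.05 and lay between 1.93 and 3.48 elsewhere. In the hypoxia list 0 of 16 tested genes had an SD of at least 0.5, near the 4.07% of all clusters. The median SD of 0.17 was that of all clusters. Slc27a2, a fatty acid transporter of liver and kidney that was placed in the brown and beige list, followed the epithelial genes, at 1.77 in Control 3, 1.81 in Control 7 and 0.37 in Control 11.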
